A study of Mus musculus with 4 samples.

Results

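The immediate early genes Fos, Fosb, Fosl2, Jun, Junb, Jund, Atf3, Egr1, Ier2 and Socs3 were followed across 4 single-cell RNA libraries of sorted vessel progenitor cells. They are 10 listed genes out of 31017 gene symbols, and all 10 had UMIs (unique molecular identifiers, the count of distinct transcript molecules) in every library. Cells came from the fat and the lung of C57BL/6 mice and were sorted by flow cytometry into 2 populations, with 1 library per tissue and population. Both populations were sorted as negative for CD45, a leukocyte protein, and for Ter119, an erythroid antigen, and as positive for Tie2, the angiopoietin receptor. The endothelial protein CD31 was present on P1 and absent from P2, and the stromal receptor PDGFRa was present on P2 and absent from P1. P1 had high CD105 and low Sca1, and P2 the reverse. Age, sex, number of animals and the way the tissue was dissociated are not given in the sources used here. Because there was 1 library per group, no test was possible, and every difference below describes single libraries. Intervals are 95% and cover counting error only (exact Poisson for levels, Clopper-Pearson for shares of cells).

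Immediate early genes are transcribed within minutes of a stimulus by transcription factors that are already present in the cell, so no new protein is needed first. Fos and Jun family proteins pair into the AP-1 transcription factor, which binds DNA through a basic leucine zipper. In stroma and endothelium the genes respond to growth factors, cytokines, mechanical strain and injury, and enzymatic digestion and sorting of a tissue are also known to raise them. Their transcripts are short-lived, and decay factors such as Zfp36 and inhibitors such as Socs3 are induced along with them and end the response.

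The promoters of 4 genes are shown because each holds the letters TGACG, the core of the cAMP response element through which CREB and ATF proteins switch on Fos. Capitals mark these letters on either strand in the 150 bases that end just before the RefSeq transcription start (RefSeq sequences, build GRCm38.p6). The windows are chr12:85473740-85473889 (plus strand) for Fos, chr7:19310046-19310195 (minus strand) for Fosb, chr8:84978749-84978898 (minus strand) for Junb and chr1:191183334-191183483 (minus strand) for Atf3.
Fos: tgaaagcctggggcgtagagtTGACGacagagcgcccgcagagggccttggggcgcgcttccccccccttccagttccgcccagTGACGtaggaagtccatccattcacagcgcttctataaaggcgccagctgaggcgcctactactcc
Fosb: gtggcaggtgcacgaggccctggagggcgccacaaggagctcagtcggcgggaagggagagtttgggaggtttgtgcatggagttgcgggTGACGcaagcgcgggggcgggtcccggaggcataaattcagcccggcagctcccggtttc
Junb: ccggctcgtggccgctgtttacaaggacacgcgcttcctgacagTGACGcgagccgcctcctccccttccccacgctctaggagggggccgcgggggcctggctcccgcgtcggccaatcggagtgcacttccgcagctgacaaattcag
Atf3: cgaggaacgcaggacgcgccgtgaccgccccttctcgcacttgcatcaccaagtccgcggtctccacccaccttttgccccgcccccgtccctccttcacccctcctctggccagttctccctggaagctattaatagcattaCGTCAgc
RefSeq windows matched 8 of the 10 genes by symbol, all except Egr1 and Ier2, and TGACG was found in 4 of these 8, against 13.3% of 32851 windows of the same length. Fos carried it from 129 to 125 and from 66 to 62 bases before its start, with TATAAA from 33 to 28. Fosb carried it from 60 to 56, Junb from 106 to 102 and Atf3 from 7 to 3 bases before the start, in Atf3 on the other strand. The full element TGACGTCA, which contains TGACG, was found in 0 of the 8 windows and in 1.36% of all windows. Likewise 0 of the 8 held a CArG box, the serum response factor motif (0.916% of all windows), the AP-1 motif TGANTCA (4.24%) or the STAT motif TTCNNNGAA (4.09%). The EGR motif GCGNGGGCG was in the Fosb and Fosl2 windows, 2 of 8, against 3.81% of all. All motifs were searched on both strands, and a match is a description of letters in this window, not a bound site. Bases further upstream or after the start were not searched. With motifs this rare in all windows, 0 of 8 says little, and no lack of such sites near these genes is read from it. RefSeq starts and the GENCODE gene bounds used below are not always the same: the Fos and Jun windows end at the GENCODE gene start, those of Junb and Jund end upstream of it, that of Fosb overlaps the first bases of the gene, and those of Atf3, Fosl2 and Socs3 lie inside the gene.

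Tissue marker genes contradicted the labels of both P1 libraries, which are therefore called lung-labelled and fat-labelled P1. Levels are in CPM, a gene's UMIs scaled to the same total in every library, so each is a share of all RNA counted. Capillary and adipocyte Fabp4 reached 12379 CPM in lung-labelled P1 and 94.2 in fat-labelled P1. The lung mesenchyme and vessel factor Foxf1 was at 3.58 and 716 CPM there, and alveolar surfactant gene Sftpc at 0 and 738. Of the sort markers, Pecam1 (CD31), Pdgfra and Eng (CD105) followed the gates, with Pecam1 at 1757 and 1223 CPM in fat-labelled and lung-labelled P1 and Pdgfra at 447 and 1752 in fat and lung P2. Ly6a, which encodes Sca1, ran against the gate by label: it was at 2423 and 1750 CPM in fat-labelled and lung-labelled P1 and at 1921 and 205 in fat and lung P2. With the P1 libraries paired by tissue markers, lung-labelled P1 was below fat P2, in the direction of the gate, and fat-labelled P1 was above lung P2. Tek (Tie2) was low in lung P2, at 40.7 CPM, against 164 to 685 in the other libraries. Barcodes with at least 1000 UMIs, 500 genes and at most 10% mitochondrial UMIs were kept, which left 652 to 7898 cells per library (11934 in all), 1118642 to 43599072 UMIs and median UMIs per cell of 1561 to 5151.5. Pairs of libraries shared up to 54 of the deposited barcodes and at most 1 kept barcode. The lung-labelled P1 library stood apart: over 1557 genes its barcodes had a median variance-to-mean ratio of 1.01, where random draws of UMIs give 1, and 0.257% of genes were above 1.5, against 5.19% to 9.75% in the other libraries. Whether its barcodes are single cells was not tested.

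All 10 genes had their 2 highest levels in fat P2 and in the lung-labelled P1 library, the library that carried the fat marker Fabp4. Fat P2 was highest for 6 genes and the lung-labelled P1 library for 4, and the fat-labelled P1 library was lowest for 9. Summed, the 10 genes made up 2.15% of UMIs in fat P2, 1.64% in the lung-labelled P1 library, 0.346% in lung P2 and 0.208% in the fat-labelled P1 library. In the same order, ribosomal protein genes took 13.1%, 15.2%, 4.41% and 4.16% of UMIs and the nuclear RNA Malat1 stood at 40894, 13177, 65552 and 51007 CPM. The part of RNA quality in the level of the 10 genes was not tested. Of the 30 neighbouring pairs of libraries in the 10 gene orders, the counting intervals overlapped in 2.

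**Figure D1:**
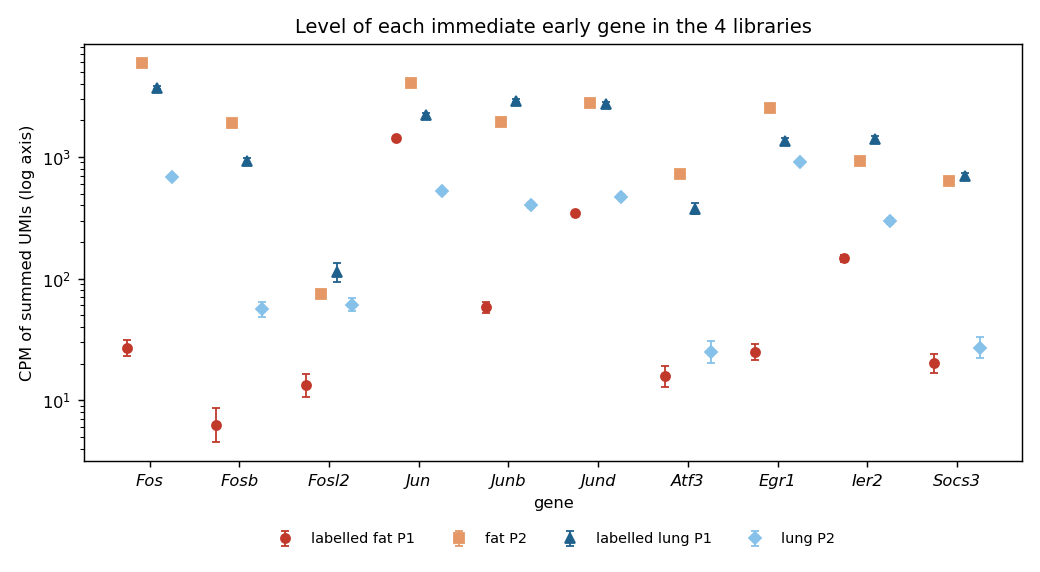
Level of each gene (horizontal axis) in CPM of summed UMIs (vertical, log axis), 1 point per library with its exact Poisson 95% interval. Fat P2 and the lung-labelled P1 library lie above the other 2 libraries for every gene, and Jun is the gene for which the fat-labelled P1 library lies above lung P2.

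The Fos family supplies the AP-1 partners that cannot pair with themselves. Fos (chromosome 12, 85473890 to 85477273 on build mm10, plus strand, by GENCODE, which gives all 10 genes as protein coding) stood at 5906 CPM (5883 to 5929) in fat P2, 3721 (3608 to 3835) in the lung-labelled P1 library, 689 (663 to 716) in lung P2 and 27.0 (23.2 to 31.3) in the fat-labelled P1 library. The highest level was 218 times the lowest. Of the 176 Fos UMIs behind the lowest value, 38.1% lay in 38 epithelial-like cells led by Ager and 11.9% in 9 cells led by Fabp4. Without clusters of under 50 cells, an alternative chosen after seeing the data, Fos in that library was 9.33 CPM. With at least 2000 UMIs and at most 5% mitochondrial UMIs it was 7.16 CPM. Fosb (chromosome 7, 19302696 to 19310051, minus strand), a close relative that lasts longer after a stimulus in its truncated form, spanned the widest range of the 10, 304-fold. It stood at 1913 CPM in fat P2, 923 in the lung-labelled P1 library, 55.7 in lung P2 and 6.30 (4.52 to 8.54, from 41 UMIs) in the fat-labelled P1 library. Of these 41 UMIs, 46.3% lay in 251 unnamed cells led by Igkc, Ccl5 and Gzma and 19.5% in the 9 cells led by Fabp4. With the same stricter filter the last value was 1.02 CPM, so the 304-fold range rests on a level near the floor. Fosl2 (chromosome 5, 32135801 to 32157842, plus strand), a later and steadier Fos family member, departed from this pattern. It stood at 113, 74.6, 61.1 and 13.2 CPM in the lung-labelled P1 library, fat P2, lung P2 and the fat-labelled P1 library, so 3 of the 4 libraries lay within 1.84-fold of each other.

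The Jun family can pair both with itself and with Fos proteins. Jun (chromosome 4, 95049034 to 95052222, minus strand) stood at 4054 CPM in fat P2, 2205 in the lung-labelled P1 library, 1419 (1390 to 1448) in the fat-labelled P1 library and 522 (500 to 546) in lung P2. It was the exception of the 10: the library with the fewest Fos UMIs held 2.72 times the Jun level of lung P2. In that library Jun made up 68.3% of the UMIs of the 10 genes, against 13.4% to 18.9% in the other libraries, and 77.8% of Jun family UMIs. Junb (chromosome 8, 84974484 to 84978718, minus strand), which can restrain Jun, stood at 2903 CPM in the lung-labelled P1 library, 1953 in fat P2, 403 in lung P2 and 58.2 in the fat-labelled P1 library. Jund (chromosome 8, 70698949 to 70700616, plus strand), the member known for steady expression in resting cells, was among the narrowest in range at 7.99-fold. It stood at 2772 CPM (2757 to 2788) in fat P2 and 2729 (2633 to 2828) in the lung-labelled P1 library, whose intervals overlapped, then 472 in lung P2 and 347 in the fat-labelled P1 library.

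Atf3 (chromosome 1, 191170296 to 191218039, minus strand), a stress-induced factor of the ATF/CREB family that dimerises with Jun proteins, stood at 723 CPM in fat P2, 376 in the lung-labelled P1 library, 25.0 in lung P2 and 15.7 in the fat-labelled P1 library. The 2 libraries with lung markers were thus the low ones. In lung P2 part of the Atf3 lay in small clusters, and without clusters of under 50 cells Atf3 there was 16.6 CPM. Egr1 (chromosome 18, 34859823 to 34864984, plus strand), a zinc finger factor downstream of ERK and serum response factor, set lung P2 apart from the fat-labelled P1 library. It stood at 2532 CPM in fat P2, 1348 in the lung-labelled P1 library, 907 (878 to 938) in lung P2 and 24.9 (21.2 to 29.0) in the fat-labelled P1 library, where it was 14.6 without clusters of under 50 cells. In lung P2 Egr1 made up 26.2% of the UMIs of the 10 genes, against 11.8%, 8.21% and 1.20% in fat P2 and in the lung-labelled and fat-labelled P1 libraries. Ier2 (chromosome 8, 84661331 to 84662852, minus strand), a nuclear regulator induced with the AP-1 genes, stood at 1412 CPM in the lung-labelled P1 library, 921 in fat P2, 296 in lung P2 and 147 in the fat-labelled P1 library. Socs3 (chromosome 11, 117966079 to 117970047, minus strand), the feedback inhibitor of gp130 and JAK-STAT signalling, divided the libraries into pairs. It stood at 692 CPM (644 to 742) in the lung-labelled P1 library and 634 (627 to 642) in fat P2, against 27.1 (22.1 to 32.8) in lung P2 and 20.1 (16.8 to 23.9) in the fat-labelled P1 library, whose intervals overlapped.

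By label, the P1 over P2 ratio of the 10 genes had opposite signs in the 2 tissues. A ratio here is the log2 of 1 level over the other after 10 CPM were added to each, and it was taken for genes that reached 50 CPM in either library. A gene counts as higher or lower when this ratio reaches 4-fold. In the fat-labelled P1 library over fat P2, 8 of 10 genes were at least 4-fold lower and 0 higher, where 10.1% of 4727 genes were lower and 12.4% higher. The genes past 4-fold ran from Fos at -7.32 to Ier2 at -2.57, and Fosl2 (-1.87) and Jun (-1.51) were within 4-fold. The median of the 10 was -4.63, against 0.38 over all genes compared. In the lung-labelled P1 library over lung P2, 8 of 10 were at least 4-fold higher and 0 lower, where 8.45% of 4791 genes were higher and 11.8% lower. Socs3 (4.24), Fosb (3.83) and Atf3 (3.46) led, and Fosl2 (0.79) and Egr1 (0.57) stayed under 4-fold. The median was 2.46, against -0.12 over all genes. Cell type went with the gate: of 12 endothelial markers, 12 stood at 100 CPM or more in each P1 library (summed 18342 and 11598 CPM in fat-labelled and lung-labelled P1) and 1 in each P2 library (239 and 822 in fat and lung P2). Of 12 fibroblast markers, 0 and 6 did so in fat-labelled and lung-labelled P1 (82.8 and 1324 CPM) and 12 and 11 in fat and lung P2 (46613 and 15035 CPM). Leukocyte markers summed to at most 468 CPM in any library, and 4 erythroid genes to 5204 CPM in lung-labelled P1 and at most 232 elsewhere. Cell type and gate cannot be told apart as sources of these ratios.

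By tissue the order was reversed between the populations as labelled. In lung P2 over fat P2, the comparison that uses neither P1 library, 7 of 10 genes were at least 4-fold lower and 0 higher, where 4.79% of 4323 genes were lower and 8.24% higher. Fosb (-4.87), Atf3 (-4.39) and Socs3 (-4.12) were lowest, and Ier2 (-1.60), Egr1 (-1.47) and Fosl2 (-0.25) were within 4-fold. The median was -2.73, against 0.15 over all genes. With TMM scaling the all-gene median moved to -0.27, the number of genes higher and lower went from 356 and 207 to 285 and 307, and the 7 stayed 7. In the lung-labelled P1 library over the fat-labelled P1 library, 9 of 10 were at least 4-fold higher and 0 lower, where 5.28% of 4605 genes were higher and 5.71% lower. Fos (6.65), Fosb (5.84) and Junb (5.42) led, and Jun (0.63) alone was within 4-fold. The median was 4.23, against -0.31 over all genes. These comparisons share libraries with the ones above, so they are not separate evidence.

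With the P1 libraries paired by the tissue markers they carried instead of by their labels, the medians of the 10 were smaller. In the lung-labelled P1 library over fat P2, 0 of 10 genes passed 4-fold in either direction, where 9.97% of 4282 genes were higher and 9.46% lower. The 10 ratios lay between -1.04 (Fosb) and 0.61 (Ier2), with 4 above 0 and a median of -0.34, against 0.11 over all genes. The signs for Jund (-0.02) and Socs3 (0.12) each changed under 2 of 8 other settings, TMM scaling among them for Socs3. In the fat-labelled P1 library over lung P2, 8 genes reached 50 CPM in either library, with Atf3 and Socs3 below it in both. Of these, 4 were at least 4-fold lower and 0 higher, where 10.3% of 4853 genes were lower and 8.9% higher. Egr1 (-4.72), Fos (-4.24), Junb (-2.60) and Fosb (-2.01) were the 4, and Jun stood at 1.42. The median was -1.81 over these 8 genes and -1.29 over all 10, against 0.21 over all genes compared. Within these pairs the populations still differ in cell type. Whether the labels of the P1 libraries were exchanged was not tested beyond the marker genes given above.

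**Figure D2:**
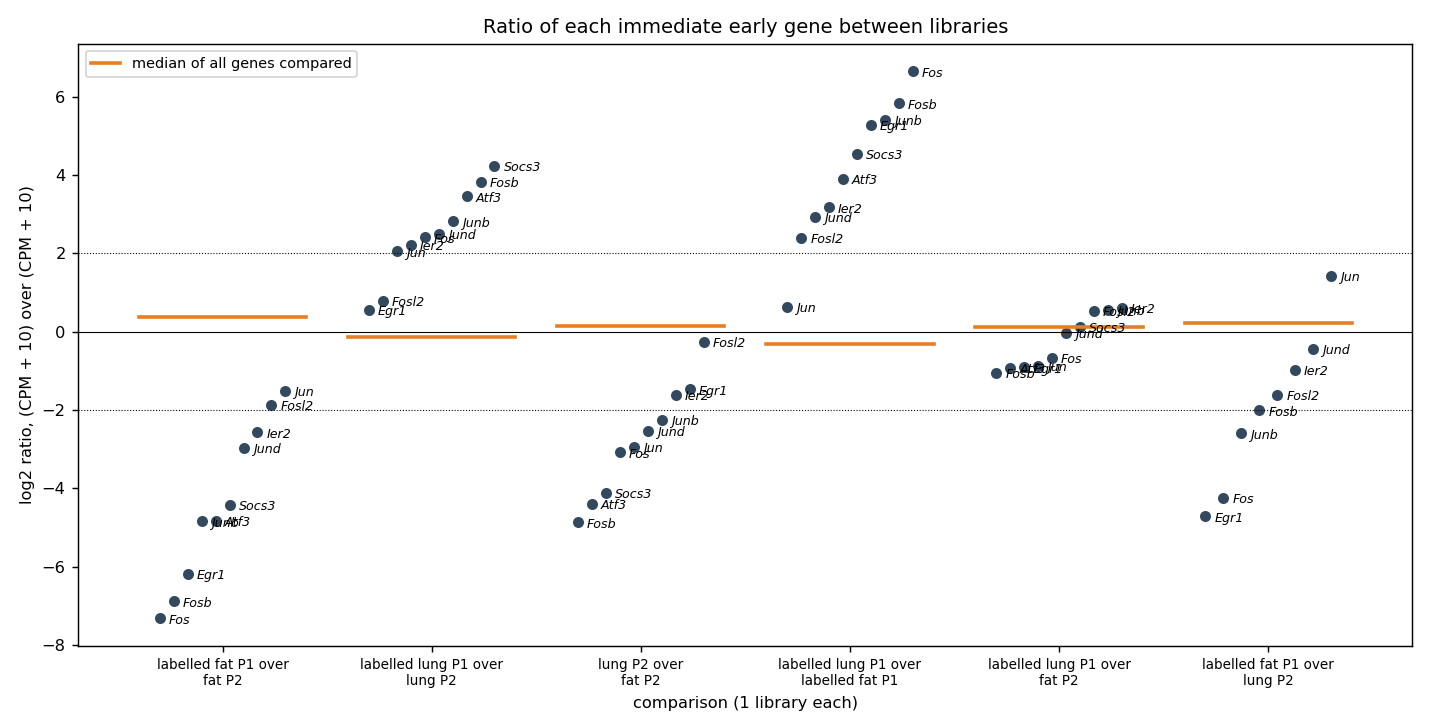
Log2 ratio of each gene (1 named point per gene) in 6 comparisons of 1 library with another, with the median of all genes compared as an orange bar and 4-fold as dotted lines. The genes lie between -7.32 and -1.51 for the fat-labelled P1 library over fat P2 and between -1.04 and 0.61 for the lung-labelled P1 library over fat P2. Genes under 50 CPM in both libraries are left out.

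In both high libraries most barcodes had UMIs of Fos, Fosb, Jun, Junb, Jund and Egr1 after thinning, whereas fewer had Atf3, Socs3 and Fosl2. Ier2 was in 76.7% of lung-labelled P1 barcodes but 39.5% of fat P2 cells. How far lung-labelled P1 barcodes share a common pool of RNA was not tested, so their shares do not count expressing cells. With every cell thinned to 1000 UMIs, Fos had a UMI in 97.7% of lung-labelled P1 barcodes (99.4% before thinning) and 87.2% of fat P2 cells (94.4%), but in 27.1% of lung P2 cells (37.4%) and 1.23% of fat-labelled P1 cells (2.67%). No cell type is known to lack these genes, so fibroblast and endothelial genes in the other class serve as a gauge of free RNA. Dcn, a fibroblast proteoglycan, had a UMI in 0.443% of endothelial-like fat-labelled P1 cells (0.739% before thinning, median 3161 UMIs) and in 28.9% of endothelial-like lung-labelled P1 barcodes (41.4%, median 1549.5 UMIs). Pecam1 had one in 0.0655% of fibroblast-like fat P2 cells (0.327%, median 5179 UMIs) and 0.152% of fibroblast-like lung P2 cells (0.456%, median 2164 UMIs). Col1a1, another fibroblast gene, gave lower shares in the same P1 classes, 0.0739% and 14.9% (0.148% and 23.4% before thinning). In the fat-labelled P1 library the 0.257% for Fosb (0.821% before thinning) lay between the Col1a1 and Dcn shares, and the intervals for Fos, Egr1 and Fosl2 overlapped that of Dcn, 0.163% to 0.963%. No expression is read from these 4 shares. These gauge genes differ in abundance from the early genes, so their shares are a rough guide only. The largest fibroblast-like clusters of lung P2 held Dcn at only 16.5 to 34.9 CPM. Alveolar Sftpc was at 61.2 to 221 CPM in endothelial-like fat-labelled P1 clusters and at 463 to 1461 in fibroblast-like lung P2 clusters. Low shares of Dcn or Pecam1 therefore do not mean little free RNA in these libraries, and its amount was not tested. In the order lung-labelled P1, fat P2, lung P2, fat-labelled P1, the shares for Egr1 were 69.9%, 76.1%, 43.1% and 0.975% (82.1%, 91.0%, 57.7% and 2.57% before thinning). Jun was the gene found in most fat-labelled P1 cells, 72.1% (91.9% before thinning), against 25.1% (44.3%) in lung P2. Socs3 was in 48.5% of lung-labelled P1 barcodes, 36.0% of fat P2 cells, 1.60% of lung P2 cells and 2.05% of fat-labelled P1 cells (64.7%, 66.5%, 4.25% and 5.49% before thinning). Fosl2 stayed rare, at 10.6%, 7.17%, 6.62% and 0.719% in the order used for Egr1 (17.6%, 28.5%, 12.6% and 3.80% before thinning).

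The spread between cells was wide in fat P2 and narrow in the lung-labelled P1 library, although their levels were close. Per 1000 UMIs, the 10 genes together gave a median of 18 UMIs per fat P2 cell, with 2 at the 5th and 51 at the 95th percentile and a maximum of 111. The library labelled lung P1 gave a median of 16, with 9 and 24 at the same percentiles. A median of 2 was seen in both lung P2 and the fat-labelled P1 library, but their 95th percentiles were 10 and 5 and their maxima 79 and 19. At most 3 UMIs were seen in 10.3% of fat P2 cells and 0.920% of lung-labelled P1 barcodes, against 66.7% in lung P2 and 83.2% in the fat-labelled P1 library. At 30 or more stood 25.5% of fat P2 cells and 0.920% of lung-labelled P1 barcodes. The variance-to-mean ratio of the thinned counts had a median of 2.63 over the 9 genes at 100 CPM or more in fat P2 and 2.56 over 6 in lung P2, against 1.04 and 1.09 over all such genes. In the fat-labelled and lung-labelled P1 libraries it was 1.19 (3 genes) and 1.17 (10 genes), against 1.07 and 1.01. Fos in lung P2 had the highest ratio of any of the 10 in any library, 5.25. Genes in these backgrounds were not matched to the 10 in level, on which the ratio depends.

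**Figure D3:**
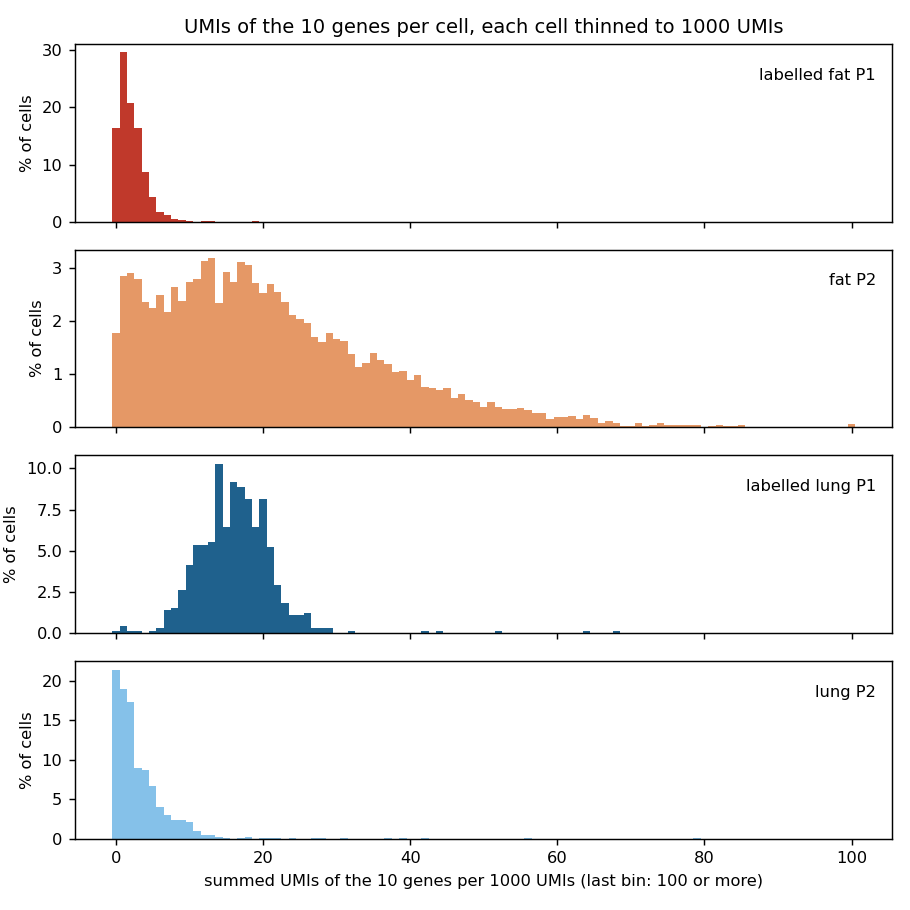
Distribution over cells of the summed UMIs of the 10 genes, each cell thinned to 1000 UMIs (horizontal axis), as percent of the library's cells (vertical axis, its own scale in each panel), 1 panel per library. Fat P2 reaches from 0 to above 100 with a median of 18, whereas the lung-labelled P1 barcodes lie around 16.

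In fat P2 the genes varied together from cell to cell. Over 7898 thinned cells the median Pearson r of the 45 gene pairs was 0.277, and 29 pairs were above 0.2, against 0.0886% of all pairs of 1504 genes at 100 CPM or more. Fos and Jun were the closest pair at 0.547, followed among Fos pairs by Fosb (0.512), Egr1 (0.500) and Junb (0.467). Fosl2 stood outside, between 0.018 with Atf3 and 0.065 with Fos, at a mean of 0.0763 UMIs per thinned cell. In lung P2 the median was 0.123 over 1436 cells, with 16 pairs above 0.2 (0.201% of all gene pairs there), and Fos with Egr1 was highest at 0.381. The median was 0.052 over 652 lung-labelled P1 barcodes, with 0 pairs above 0.2 (0.00165% of all pairs), and 0.030 over 1948 fat-labelled P1 cells, with 1 such pair (0.0617% of all pairs). These 2 libraries give no finding of joint variation, and the cause of their low r was not tested. The points in each value share a library and a depth of 1000 UMIs. Genes behind the shares of all pairs were not matched in level to the listed genes, and r in thinned cells depends on level. How far the listed genes exceed other genes of like level was not tested, so these shares are a rough guide only. At 2000 UMIs per cell the medians were 0.364 in fat P2, 0.236 in lung P2, 0.142 in the lung-labelled P1 library and 0.0596 in the fat-labelled P1 library.

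**Figure D4:**
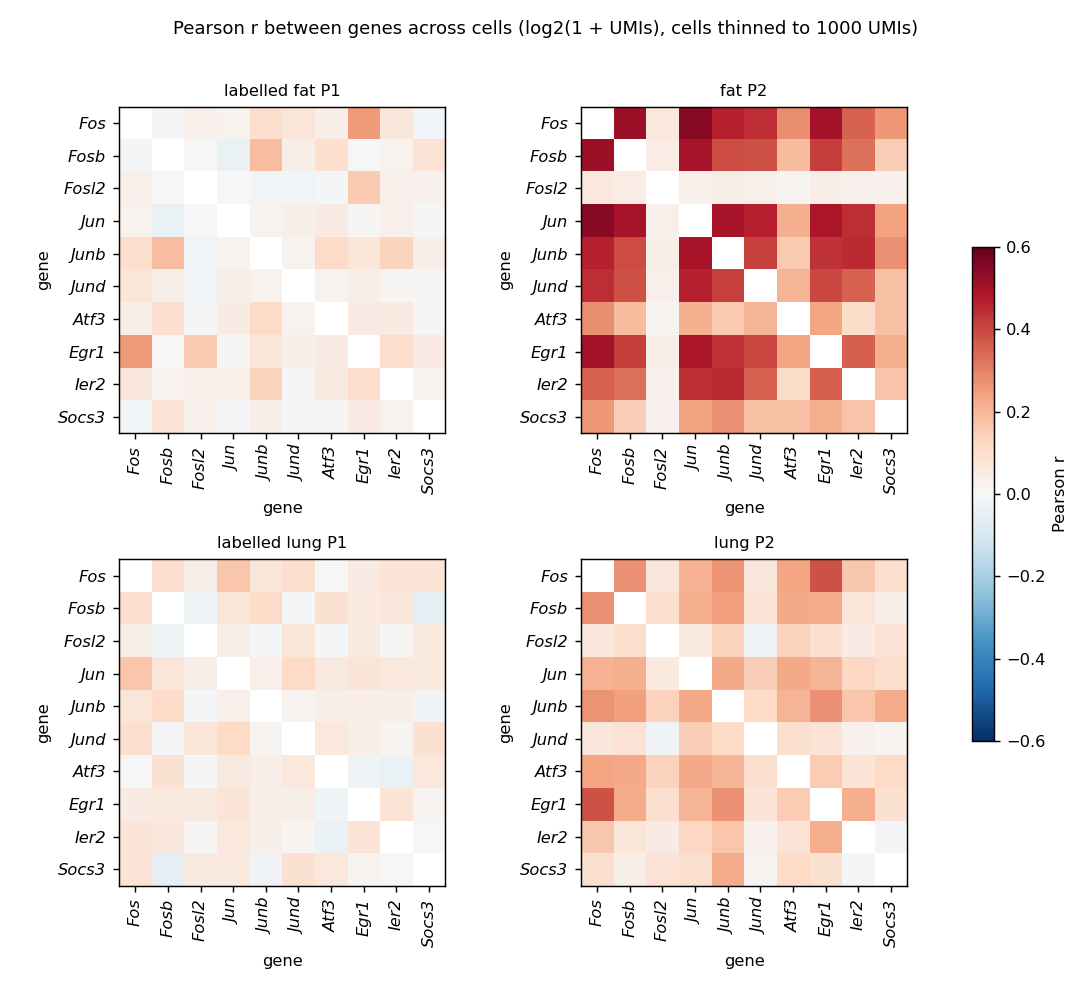
Pearson r between each 2 of the 10 genes across cells (colour, blank on the diagonal), each cell thinned to 1000 UMIs and counts taken as log2(1 + UMIs), 1 panel per library. In fat P2 every pair without Fosl2 is above 0.1, and Fos with Jun reaches 0.547.

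Seen as shares of cells, Fos had a UMI in 94.4% of fat P2 cells with Egr1 and in 64.3% of those without it. In lung P2 the shares were 44.7% and 13.7%. The gene outside the list that followed the sum of the 10 most closely in fat P2 was Zfp36, which destabilises AU-rich transcripts (r = 0.517). Btg2, an antiproliferative early response gene (0.403), Mt1, a metallothionein (0.371), Hspa8, a chaperone (0.329), Cebpd, an acute response factor (0.323), Neat1 (0.294), Dusp1, a MAP kinase phosphatase (0.283), Malat1 (0.281) and Tnfaip6 (0.279) came next. Of these, 3 (Zfp36, Btg2 and Dusp1) were also among the 10 closest in lung P2, where Btg2 led at 0.389 and was followed by Nr4a1, an orphan nuclear receptor (0.341), Zfp36 (0.307), Mgp (0.253), Cyr61 (0.239), Hhip (0.232), Hspa1a (0.20), Timp3 (0.190), Thbs1 (0.184) and Dusp1 (0.182). At the other end in fat P2 stood Pi16, a marker of interstitial adipose progenitors, at -0.358.

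Clusters were made within each library without the 10 genes and the response lists, so that levels between them could be described. Among the 16 fat P2 clusters of at least 50 cells the summed share ran from 0.265% to 3.59% of UMIs. The highest was a fibroblast-like cluster led by Igfbp2, Slit2 and Hc (744 cells), with Fos at 9463 CPM and Jun at 7372 CPM. A cluster led by Nrep, Aoc3 and Col4a1 (806 cells) stood at 3.30% and one led by Cilp, Thbs4 and Hmcn2 (344 cells) at 3.1%. The lowest was a cluster led by Akr1c18, Dmkn and Sbsn (230 cells), with Fos at 582 CPM, Fosb at 69.6 and Egr1 at 185, and it was lowest for all 10 genes. Its cells were shallow, with a median of 2464.5 UMIs. A cluster just as shallow, led by Mrgprg, Daglb and Arhgef28 (549 cells, median 2407 UMIs), stood at 1.17%, and a deeper Dmkn-led cluster (762 cells, median 5618 UMIs) at 1.26%. Whether depth or cell quality had a part in the low level was not tested. Outside this range, 45 cells led by Nppc, Erfe and Chodl, with the satellite cell genes Myf5 and Pax7 among their 10 leading genes, reached 4.64% and Fos at 14955 CPM. Fibroblast markers were its best list (11 of 12 at 100 CPM or more). That cluster stayed unnamed, because its leading genes held the mural marker Des and no fibroblast marker.

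In lung P2 the 8 clusters of at least 50 cells lay between 0.20% and 0.498%, the upper one led by Igkc, Scara5 and Dcn (77 cells). A small fibroblast-like cluster led by Hhip, Cyp2e1 and Igfbp5 (21 cells) stood far above, at 2.20%, with Fos at 7250 CPM, Junb at 3913 and Egr1 at 3514. These cells were 1.75% of the library by UMIs and held 18.4% of its Fos and 18.1% of its Fosb UMIs. Without clusters of under 50 cells the Fos level of lung P2 was 621 CPM and the median r of the gene pairs 0.084. The 34 endothelial-like cells of lung P2 had low Fos, Egr1 and Junb beside higher Jun, as the fat-labelled P1 library did. They had Fos at 34.3 CPM (15.7 to 65.2), Egr1 at 61.0 and Junb at 30.5, but Jun at 870 CPM (760 to 990). Dcn was at 0, Col1a1 at 122, Pdgfra at 244 and Sftpc at 3215 CPM. Dcn is a weak gauge here, since the largest fibroblast-like clusters of lung P2 held only 16.5 to 34.9 CPM of it. Those clusters had Pdgfra at 2224 to 2901 and Sftpc at 801 to 1461 CPM. The part of cell type in the levels of these 34 cells was not tested. Fibroblast-like cells of the same library had Fos at 758, Egr1 at 1004 and Jun at 508 CPM. The 17 endothelial-like cells of fat P2 had Fos at 5156 CPM (4746 to 5593) and Jun at 3951, but they also carried Dcn at 7185 and Col1a1 at 3818 CPM, and the part of these fibroblast transcripts in the Fos level was not tested.

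In the fat-labelled P1 library the 7 clusters of at least 50 cells lay between 0.171% and 0.229%, with Jun between 1272 and 1578 CPM and Fos at most 19.0. Jun and Fos lay closer together in the 38 epithelial-like cells, with Jun at 321 CPM, Fos at 268 and Egr1 at 188. The 9 endothelial-like cells led by Fabp4, Timp4 and Fabp5 stood at 0.496%, with Fos at 516, Fosb at 197, Junb at 491 and Jun at 1990 CPM, and with Fabp4 itself at 12532 CPM and Dcn and Col1a1 at 0. The 6 lung-labelled P1 clusters of at least 50 barcodes were nearly equal, from 1.58% to 1.62%. Its 16 barcodes led by Car3, with a median of 3606 UMIs, stood at 2.47%. They had Jun at 4977, Fos at 5866, Egr1 at 3313, Dcn at 0 and Col1a1 at 16.2 CPM. The erythroid gene Hbb-bs was at 194 CPM in these barcodes and at 3750 to 4352 in every other cluster of that library. Dcn was at 215 to 389 CPM in those other clusters. How far their barcodes share a common pool of RNA was not tested. Over the whole library Dcn and Col1a1 stood at 2.17% and 2.78% of their fat P2 levels, and the 10 genes at 48.3% (Fosb) to 153% (Ier2) of theirs. Dcn and Col1a1 speak only to fibroblast transcripts, and the part of free RNA in the lung-labelled P1 levels was not tested.

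**Figure D5:**
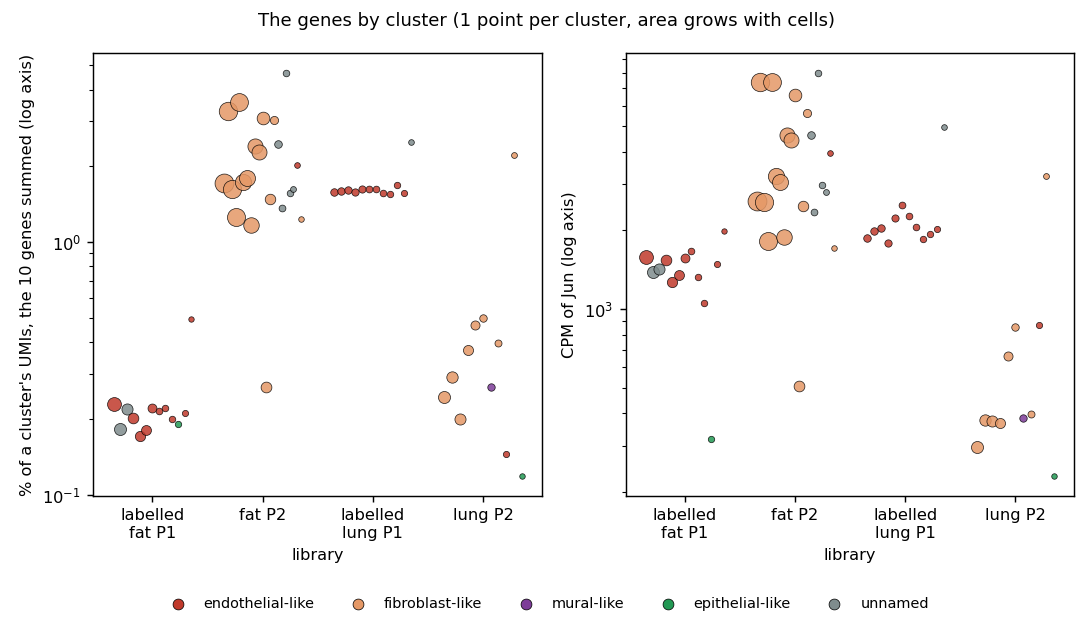
Summed share of the 10 genes in a cluster's UMIs (left, percent, log axis) and level of Jun (right, CPM, log axis) by library, 1 point per cluster with its area growing with the number of cells and its colour giving the cluster's class. The clusters of fat P2 spread from 0.265% to 4.64%, and in the fat-labelled P1 library the levels of Jun, but not the summed share, reach those of the lung-labelled P1 library (in the 9-cell cluster).

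Inside a library, some of the genes differed between cells of low and high mitochondrial share. The sum of the 10 in thinned cells had r of 0.034, 0.135, -0.060 and 0.077 with log2 UMIs per cell and of -0.056, -0.051, -0.034 and 0.130 with the mitochondrial percentage, in the order fat-labelled P1, fat P2, lung-labelled P1, lung P2. Over kept cells at up to 3%, 3 to 6% and 6 to 10% mitochondrial UMIs, Fos in fat-labelled P1 was at 4.23, 18.9 and 46.3 CPM, and Atf3 in lung P2 at 4.82, 24.9 and 47.1. Both rises start from few UMIs. In fat P2, with far more UMIs, Fos was at 6003, 5822 and 5104 CPM and Fosb at 1899, 1890 and 2509. From the lowest to the highest bin the sum went from 2.18% to 2.07% in fat P2 and from 0.213% to 0.199% in fat-labelled P1. In lung P2 it went from 0.268% to 0.361%. The sum in lung-labelled P1 was 3.42% in the 10 barcodes of the lowest bin and 1.57% in the highest. The part of cell quality in these levels was not tested. Removed barcodes with over 10% mitochondrial UMIs held 0.156%, 1.71%, 2.44% and 0.230% of UMIs in the 10 genes, so the 2 high libraries were also the high ones among removed barcodes. Fosb in fat P2 was at 3230 CPM in the removed barcodes, above the 1913 of kept cells. The removed lung-labelled P1 barcodes were 16 in number. The 43 lung-labelled P1 barcodes with at least 2000 UMIs and at most 5% mitochondrial UMIs had Jun at 3630 and Egr1 at 2357 CPM, above the 2205 and 1348 of all 652. The sum of 14 heat shock genes, which also respond to handling, was 3599, 7389, 12573 and 3441 CPM in the same order of libraries, and across fat P2 cells it had r = 0.349 with the sum of the 10 genes. The part of tissue handling in the levels was not tested.

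Other genes of the response did not all follow the 10. Of 22 other immediate early transcription factors, 11 or 12 reached 50 CPM in the 4 comparisons given here. Of these, in the fat-labelled P1 library over fat P2, 5 of 12 were at least 4-fold lower and 0 higher (all genes 10.1% and 12.4%), with Cebpb (15.5 and 231 CPM), Nr4a1 (8.91 and 151), Myc (0.768 and 55.2) and Cebpd (202 and 1217) lowest. Between lung-labelled P1 and lung P2, 4 of 12 were higher in P1 and 1 lower (all genes 8.45% and 11.8%). Ier3 (755 and 29.9 CPM), the flow-responsive endothelial factor Klf2 (1825 and 107) and Klf4 (673 and 113) were higher and Cebpb (107 and 493) lower. In lung P2 over fat P2, 3 of 11 were lower (all genes 4.79%), namely Klf4 (113 and 1775 CPM), Klf2 (107 and 830) and Myc (1.80 and 55.2). Over the fat-labelled P1 library, 4 of 12 were higher in lung-labelled P1 (all genes 5.28%), led by Nr4a1 (452 and 8.91 CPM).

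Feedback inhibitors and RNA decay genes were past 4-fold in both directions, in numbers to be read against the shares of all genes. In the fat-labelled P1 library over fat P2 (10.1% of all genes lower, 12.4% higher), 3 of 15 were at least 4-fold lower, Zfp36 (81.1 and 1160 CPM), Nfkbiz (7.22 and 190) and Gadd45g (46.7 and 453), and 2 were higher, Cish (109 and 6.33) and the ERK phosphatase Dusp6 (91.1 and 12.9). In lung P2 over fat P2 (4.79% of all genes lower, 8.24% higher), 2 of 15 were lower, Gadd45g (49.2 and 453 CPM) and Ppp1r15a (30.9 and 183), and 2 higher, Socs2 (217 and 28.9) and Dusp6 (88.1 and 12.9). Dusp1 stood at 1030 CPM in lung P2 and 1123 in fat P2, where Fos differed 8.57-fold. For lung-labelled P1 over lung P2, where 8.45% of all genes were higher, 4 of 15 were higher, led by Gadd45g (1113 and 49.2 CPM), Ppp1r15a (372 and 30.9), Dusp2 (97.4 and 1.55) and Zfp36 (1866 and 397).

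Secreted and matrix response genes were past 4-fold in both directions in lung P2 over fat P2, where 4.79% of all genes were lower and 8.24% higher. Of 8 measured, the chemokine Cxcl1 (1.03 and 168 CPM) and the prostaglandin synthase Ptgs2 (2.32 and 94.4) were at least 4-fold lower in lung P2, as was Ccl7, 3 in all. Ctgf (484 and 17.9 CPM) and Thbs1 (452 and 56.0), which are YAP and TGF-beta responsive, were higher. In fat-labelled P1 over fat P2, 5 of 7 such genes were lower and 0 higher (all genes 10.1% and 12.4%). In lung-labelled over fat-labelled P1, 2 of 3 were higher and 0 lower (all genes 5.28% and 5.71%). Lung-labelled P1 over lung P2 gave 1 of 5 higher and 2 lower (all genes 8.45% and 11.8%). Of 14 heat shock genes, 3 were lower and 0 higher in the fat-labelled P1 library over fat P2 (all genes 10.1% and 12.4%). In the lung-labelled P1 library over lung P2, 5 were higher and 2 lower (all genes 8.45% and 11.8%). Hspa1a, the inducible HSP70, stood at 2473 CPM in the lung-labelled P1 library and 167 in lung P2. Upstream kinases and factors gave 0 of 13 past 4-fold in lung P2 over fat P2, and the gp130 receptors, kinases and STATs upstream of Socs3 gave 0 of 9, with Lifr (140 and 32.0 CPM) and Osmr (152 and 36.1) closest to 4-fold. The 12 stable reference genes summed to 10081, 12316, 14740 and 6275 CPM in the order fat-labelled P1, fat P2, lung-labelled P1, lung P2.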

How the data were processed

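The deposited files hold counts: UMIs per gene and barcode, not normalized, in filtered matrices from 4 10x Genomics single-cell 3′ libraries. Cell Ranger 3.1.0 and build mm10 are named per the submitters' processing notes, and further settings are not given in the sources used here. Counts were summed over 35 gene symbols shared by several of the 31053 gene identifiers. Kept barcodes had at least 1000 UMIs, 500 genes and at most 10% mitochondrial UMIs, and kept libraries held 1118642 to 43599072 UMIs, so that 3 counts correspond to 2.68 to 0.0688 CPM. Members, lists and comparisons were chosen with earlier results of these data known. No test was run, because groups had 1 library each. Levels are CPM of summed UMIs. A gene was called at 4-fold on (CPM + 10), among genes at 50 CPM or more in either library. Shares and Pearson r used cells thinned to 1000 UMIs, r on log2(1 + UMIs). Three-prime counts are not scaled by gene length, so levels are compared between libraries, not between genes.

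Clusters were made within each library without the members and response lists (scanpy 1.11.5, leidenalg 0.10.2, 2000 variable genes, 30 components, 15 neighbours, resolution 1) and named X-like when at least 3 markers reached 100 CPM and the leading genes did not go against the name. Doublets were kept, and the highest Scrublet scores, 0.8% per 1000 barcodes, were removed as an alternative. Genes outside the 10 were named by a fixed rule: from each list up to 4 with the largest ratio, and the 10 that correlated most with the summed members, of which some are not reported here. Ccl7, Pi16, Ly6a, Eng, Tek, Dcn, Col1a1 and the clusters described singly were chosen after values were seen. Promoters were searched over 150 bases before the start rather than the longer window first planned. Alternatives were other barcode filters, TMM scaling (edgeR 4.0.16), per-cell means, pseudocount 1, no minimum level, single classes, other thinning, Spearman's rho and exchanged P1 labels, and, chosen after seeing the data, CPM without mitochondrial, ribosomal protein and Malat1 UMIs and CPM without clusters of under 50 cells. Code was checked on simulated counts with Python 3.11.15.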

Additional observations from a re-analysis of the deposited data

Results flagged for a closer look

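All 10 genes were lower in P1 than in P2 by the fat labels and higher in P1 than in P2 by the lung labels. The difference between these 2 log2 ratios was not tested, since each rests on 1 library per group, and it rests on P1 labels that tissue markers contradict. Lung minus fat, it came to 10.71 for Fosb, 9.74 for Fos, 8.66 for Socs3, 8.30 for Atf3 and 7.67 for Junb. It was 6.75 for Egr1, 5.47 for Jund and 4.79 for Ier2. Jun (3.56) and Fosl2 (2.65), the members that stayed within 4-fold in the fat comparison, had the smallest differences.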

How the results depend on the processing

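No paired analysis was possible because each group had 1 library, and for the same reason no replicate could be left out. With the P1 libraries exchanged, the 8 genes lower in the fat comparison became 0, the 8 higher in the lung comparison became 0 with 4 lower, and the 9 higher in lung-labelled over fat-labelled P1 became 0 with 9 lower, the last by construction. Under every other setting run the counts were 8 to 9, 7 to 8 and 9, and 7 for lung P2 over fat P2. TMM moved the all-gene median from 0.38 to -0.05 in the fat comparison and from 0.15 to -0.27 in lung P2 over fat P2. The median r was 0.364 at 2000 UMIs and 0.436 without thinning in fat P2, 0.142 at 2000 UMIs in lung-labelled P1 (164 barcodes) and 0.236 in lung P2. Of the 40 levels, 27 stayed within their counting interval with all deposited barcodes, 14 with the stricter filter, 23 as a mean over cells and 26 without small clusters. The mean over cells put Fosb in fat-labelled P1 at 4.09 CPM, and the stricter filter put Egr1 there at 13.97. Without mitochondrial, ribosomal protein and Malat1 UMIs every level was 1.17 to 1.29 times higher. Shares of cells depend on depth: at 2000 UMIs they were 0.999 to 3.17 times those at 1000. In lung-labelled P1 a count of 3 equals 2.68 CPM.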
